A study of Mus musculus with 8 samples.

Results

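Rdh10 encodes retinol dehydrogenase 10, and it is 1 of 779 genes with a complete row in a table of single-cell counts from mouse stomach glands. Its level was described across 1388 of 1460 cell barcodes, those with 100 or more unique molecular identifiers (UMIs, which mark single RNA molecules) in the table. The gene was chosen because earlier values of these data showed it to be unevenly spread over barcodes, so its level and spread are descriptions and carry no test. The mice were Atp4bCre; Rosa26NICD; Arid1aflox/flox and 23 weeks old. Atp4b is a proton pump gene of the acid-secreting parietal cell, and its promoter drives the Cre, which turns on the Notch intracellular domain (an always active form of the receptor) and deletes floxed Arid1a, a gene for a subunit of the BAF chromatin remodelling complex. The promoter limits Cre to part of the gland's cells, and which barcodes came from cells that had recombined was not analysed here. Cells with high EPCAM, an epithelial surface protein, and low uptake of a dead-cell dye had been sorted. All 8 labelled samples have this genotype, it is not stated whether each is a separate animal, and the barcodes carry no sample number. All values therefore come from 1 pooled sample, without a control genotype and without replicates, and no p-value is given.

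RDH10 is a membrane-bound member of the short-chain dehydrogenase/reductase family. It oxidises retinol, the alcohol form of vitamin A, to retinaldehyde, the rate-limiting first step on the way to retinoic acid. Retinaldehyde dehydrogenases complete that synthesis, retinoic acid receptors act on transcription, and CYP26 enzymes clear the product. Retinoic acid guides organ formation in the embryo and helps to maintain secretory epithelia in the adult.

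The gene (ENSMUSG00000025921.7) lies on chromosome 1 from 16105774 to 16133734 on the plus strand of GRCm38, the assembly that mm10 names, and its GENCODE vM21 transcript has 6 exons. That annotation gives the transcript 341 codons before the stop. The stretches shown here are the coding bases of the family's 2 defining parts, which make Rdh10 recognisable as a dehydrogenase of this type. They were read from the GENCODE transcript, 5′ to 3′, with the codons of the motif in capitals. The first holds the glycine-rich cofactor-binding motif at codons 42 to 49 in exon 1 (chr1:16106126-16106179). The second holds the catalytic tyrosine and lysine at codons 210 to 214, and its bases span a splice junction between 16128252 and 16129228.
Rdh10 cofactor motif: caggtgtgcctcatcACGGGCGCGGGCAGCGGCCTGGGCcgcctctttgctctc
Rdh10 active site: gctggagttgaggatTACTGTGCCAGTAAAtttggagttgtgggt

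The table covers a part of chromosome 1, with matched genes between positions 3102016 and 89933290, so a barcode's total is not its library depth. The 1388 barcodes held 439743 UMIs, with totals from 100 to 1082 and a median of 286. Levels are given in counts per 1000000 UMIs of the table (CPM), and 4 genes, Rpl7, Rpl31, Rpl37a and Ptma, took 49.67% of those UMIs. Intervals are 95% intervals for counting error only. Defining markers of gastric cells were too few to check the tissue label: 1 of 9 listed parietal markers (Slc9a4), 2 of 9 surface mucous markers (Ihh and Slc9a2) and 0 of 9 neck and chief cell markers had a row. No barcode was given a cell type name. The other genes of the sort and of the genotype, Epcam, Atp4b and Arid1a, were not analysed here.

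Rdh10 was an abundant transcript of this region and was unevenly shared among barcodes. It had 3661 UMIs, the rank 14 among all genes, and a level of 8325 CPM (8058 to 8600), or 0.8325% of the table's UMIs. A barcode held 0 to 22 Rdh10 UMIs, with a median of 2, a mean of 2.638, and 0 and 4 at the 25th and 75th percentiles. Some barcodes had far more than others: the 139 barcodes with most Rdh10 UMIs, 10% of all, held 39.22% of them. The 3 highest barcodes together had 60 UMIs, 1.639% of the total, so the unevenness did not rest on a few barcodes.

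Set against an even spread, in which every barcode holds Rdh10 at the same share of its own total, both ends of the distribution were overfilled. An even spread would leave 168 barcodes without a Rdh10 UMI, and 383 had none, which is 2.28 times as many. It would give 35.54 barcodes with 8 or more UMIs, and 114 had them. It would give 8.693 barcodes with 10 or more UMIs, and 61 had them. Barcodes with 1 to 7 UMIs were fewer than an even spread gives, for example 210 against 298.8 at 2 UMIs and 154 against 236.1 at 3 UMIs. The variance of the counts was 3.527 times the Poisson variance. The number of barcodes fell at each step from 0 to 10 UMIs, without a valley. With so few Rdh10 UMIs per barcode and such mixed totals, separate levels need not leave a valley. Whether low and high barcodes form separate groups was not tested.

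**Figure D1:**
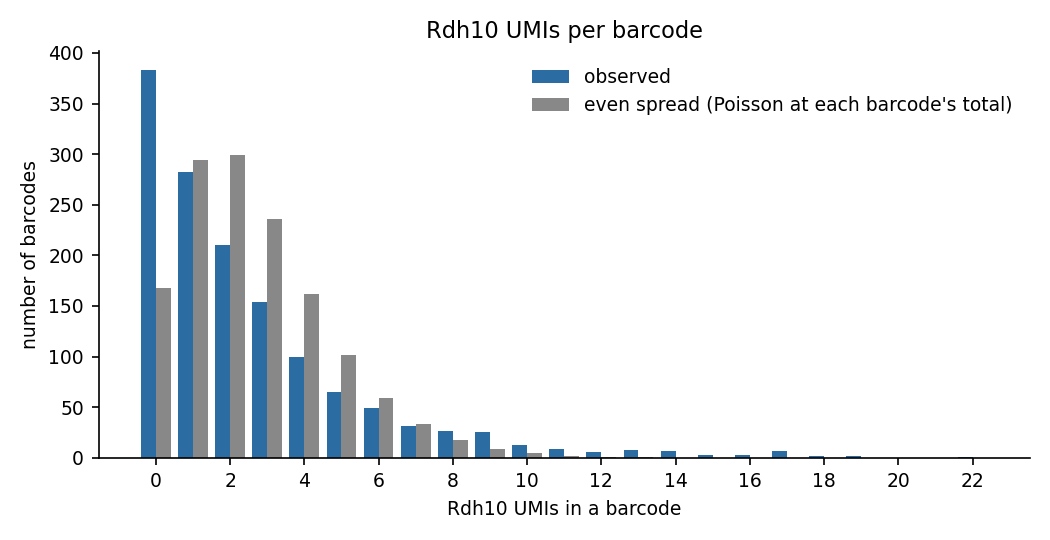
Number of barcodes (vertical axis) with each number of Rdh10 UMIs (horizontal axis), observed in 1388 barcodes (blue) and for an even spread at each barcode's total (grey). The observed bar at 0 UMIs reaches 383 against 168, and observed bars also exceed the even spread from 8 UMIs upward, except at 20 and 21 UMIs, where no barcode was found.

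Rdh10 was detected in 1005 barcodes, 72.41% (exact Clopper-Pearson interval 69.97 to 74.74), against 1220 for an even spread. Free RNA in droplets can add UMIs to cells that do not make a gene. No cell type that should lack Rdh10 could be named. The lowest share among the 15 groups of barcodes described further on was 28.57%, in barcodes with a UMI of Inpp5d at a median total of 270 UMIs, against 72.41% at 286 UMIs over all barcodes.

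Depth did not remove the unevenness. Barcodes were put in 5 depth bins that start at 100, 200, 300, 400 and 600 UMIs. In the bin from 100 UMIs Rdh10 was at 7198 CPM (6485 to 7968), and in that from 200 UMIs at 9474 (8883 to 10094), the highest of the 5. It was at 8455 CPM (7911 to 9026) in the bin from 300 UMIs and at 8291 (7808 to 8796) in that from 400. The 69 barcodes with 600 or more UMIs had the lowest level, 6942 CPM (6218 to 7727). Levels in the shallowest and the deepest bin overlapped within their intervals, as did those of the bins from 300 and from 400 UMIs. The variance over the Poisson variance was 2.1, 3.011, 3.357, 4.326 and 4.124 from the shallowest to the deepest bin, above 1 in all 5. For the same unevenness this measure grows with the Rdh10 UMIs per barcode, so its values cannot be compared between depths. After each barcode was thinned to 100 UMIs, 47.33% had a Rdh10 UMI (44.68 to 50) against 56.51% for an even spread, and the variance was 1.61 times the Poisson variance. By bin, that thinned share was 39.09% in the shallowest barcodes and between 48.01% and 51.85% in the others.

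Few genes of like abundance were as uneven. Among the 168 genes with 200 or more UMIs, the variance over Poisson had a median of 1.116 (25th to 75th percentile 1.047 to 1.298), and Rdh10 had the rank 9. Because this measure grows with abundance, Rdh10 was also set among the 16 genes with 2000 to 6500 UMIs. Their median was 1.3, and Rdh10 came after Gsta3, a glutathione S-transferase gene, at 7.815. Idh1, close to Rdh10 in abundance with 3388 UMIs, was at 2.147. By dispersion, which allows for abundance, Rdh10 had the rank 22 of 168, with 0.7871 against a median of 0.1801. In 10 genes detection fell further below an even spread than in Rdh10, where it was 0.8237 of the even number (median gene 0.9773).

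**Figure D2:**
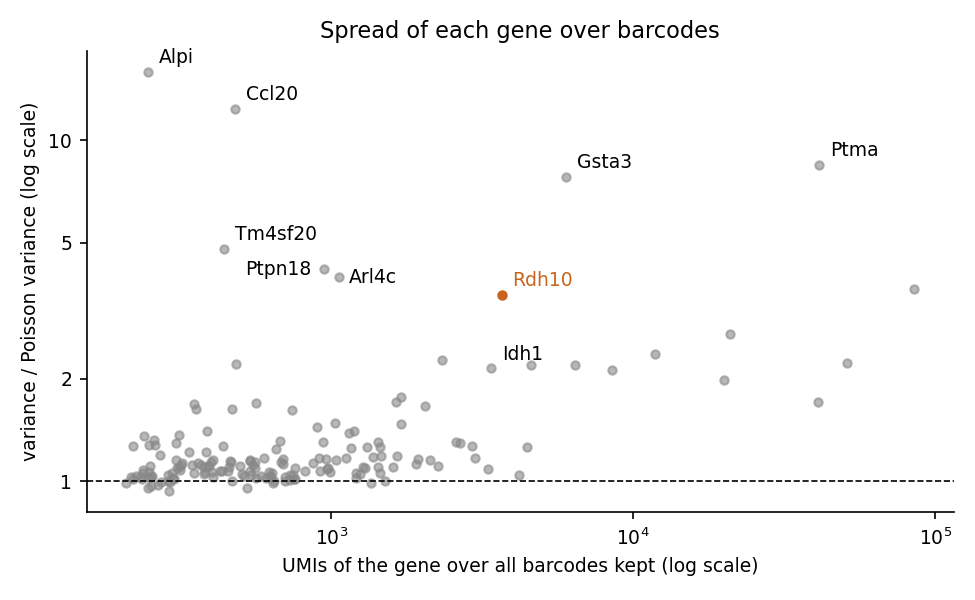
Variance over Poisson variance (vertical, log scale) against the gene's UMIs over 1388 barcodes (horizontal, log scale) for 168 genes with 200 or more UMIs. The dashed line at 1 is an even spread; Rdh10 (orange) lies at 3.527, and most genes lie near the line.

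To find which transcripts varied with Rdh10, barcodes were ranked by Rdh10's share of their UMIs within each of the 5 depth bins. The highest 25% of each bin (the Rdh10-high group) were compared with the lowest 25% (the Rdh10-low group). Ties put 352 barcodes in the Rdh10-high group and 429 in the Rdh10-low group, with 607 between. The Rdh10-high group held 2 to 22 Rdh10 UMIs per barcode (median 6), 63.84% of the gene's UMIs, at 20797 CPM. Barcodes between were at 6307 CPM. The Rdh10-low group had 383 barcodes with 0 and 46 with 1 Rdh10 UMI, at 369 CPM. These Rdh10 levels are set by the choice of barcodes. At the border in the bin from 300 UMIs, the lowest share inside the Rdh10-high group was 1.198% and the highest share outside it 1.194%. Median totals were 283, 308 and 251 UMIs in the Rdh10-high, between and Rdh10-low groups, so the Rdh10-low group was shallower. In the bin from 100 UMIs all barcodes without Rdh10 had to be taken, 157 against 84 in the Rdh10-high group.

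Levels of other genes were computed over UMIs without Rdh10, so that Rdh10 itself does not lower them. Of 167 genes with 100 or more UMIs in the 2 groups together, 9 were higher in the Rdh10-high group by 1.5-fold or more with the counting interval above 1 (5.39%), and 7 were lower to that extent with the interval below 1 (4.19%). The median ratio of all 167 was 1.003 (25th to 75th percentile 0.908 to 1.116), and 84 lay above 1. Most genes thus kept their level between barcodes rich and poor in Rdh10. Counting intervals are too narrow for genes whose UMIs gather in few barcodes, so each ratio named below was also computed without the 3 barcodes that hold most of that gene's UMIs in the 2 groups.

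Among these 167 ranked genes, the highest ratios were those of Alpi, Tm4sf20, Arl4c and Il1r1. Tm4sf20 (chromosome 1, 82756649 to 82768461), a transmembrane 4 L6 family member, was at 2236 CPM in the Rdh10-high group, 745 between and 369 in the Rdh10-low group, a ratio of 6.06 (4.409 to 8.494) and of 4.897 without its 3 top barcodes. Arl4c (88673125 to 88702221), an ARF-like small GTPase, was at 4653, 1892 and 1323 CPM, a ratio of 3.516 (2.945 to 4.216) and of 3.217 without 3 barcodes. Both genes stepped down from the Rdh10-high through the between group to the Rdh10-low group. Arl4c was seen in 162 of 352 barcodes of the Rdh10-high group (46.02%) and in 99 of 429 of the Rdh10-low group (23.08%). Il1r1 (40225080 to 40317257), the signalling receptor for interleukin-1, was at 1272, 770 and 497 CPM, a ratio of 2.559 (1.884 to 3.509). These 3 ratios lay above 1 in each of the 5 depth bins, from 1.369 to 25.13 for Tm4sf20, from 1.939 to 8.165 for Arl4c and from 1.78 to 3.258 for Il1r1. Some of these bin ratios rested on few UMIs. For Tm4sf20, 1.369 came from 10 against 13 UMIs (0.538 to 3.381) and 25.13 from 97 against 4. For Il1r1, 1.78 came from 5 against 5 UMIs (0.410 to 7.736), and the interval of its deepest bin also held 1 (0.844 to 5.001). With every barcode thinned to 100 UMIs, the ratios were 2.864 for Tm4sf20, 1.655 for Arl4c and 1.537 for Il1r1. Thinning formed new groups, here and below. Only 47.33% of barcodes then had a Rdh10 UMI, so the low group held every barcode without one. Thinned ratios thus do not compare the same barcodes as the main ratios.

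Alpi and Ccl20 depended on a handful of barcodes. Alpi, intestinal alkaline phosphatase, an enzyme of the enterocyte brush border, was at 1381 CPM in the Rdh10-high and 184.5 in the Rdh10-low group, a ratio of 7.489 (4.81 to 12.17). Of its UMIs in the 2 groups 45.14% lay in 3 barcodes, and without them the ratio was 3.63 (2.245 to 6.079). Ccl20, an epithelial chemokine that attracts lymphocytes and dendritic cells, was at 1372 CPM in the Rdh10-high group and 802 in the Rdh10-low group, a ratio of 1.711 (1.32 to 2.226). With 3 barcodes left out, which held 37.05% of its UMIs, that ratio was 3.449 (2.384 to 5.088), and with barcodes thinned to 100 UMIs it was 1.038 (0.752 to 1.431).

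Idh1, Pgap1 and Gsta3 differed less, but over many barcodes. Idh1 (65158616 to 65186500), the cytosolic isocitrate dehydrogenase that makes NADPH, was at 9752 CPM in the Rdh10-high group, 7876 between and 5847 in the Rdh10-low group, a ratio of 1.668 (1.517 to 1.835). It was detected in 84.38% of the barcodes of the Rdh10-high group and in 68.76% of the Rdh10-low group. Its ratio was 1.373 to 2.08 over the 5 depth bins. Pgap1, which remodels GPI anchors of membrane proteins, was at 2745 against 1676 CPM (ratio 1.637, 1.368 to 1.963). Gsta3 was at 16404 against 11212 CPM (1.463, 1.364 to 1.57), just under the 1.5-fold line, with bin ratios from 1.027 to 2.059. Nrp2, a co-receptor for semaphorins and VEGF, had a ratio of 1.932 (1.395 to 2.696) and Dst, a linker of the cytoskeleton, one of 1.689 (1.186 to 2.423). Thinning left Dst at 1.064 and Nrp2 at 1.317, with intervals that reached below 1.

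Fam117b, Fn1, Ptpn18 and Ihh stood at the other end, lower where Rdh10 was high. Fn1, the matrix protein fibronectin, was at 727 CPM in the Rdh10-high group, 1038 between and 1556 in the Rdh10-low group, a ratio of 0.467 (0.356 to 0.609). Fam117b was at 682, 1008 and 1540 CPM, a ratio of 0.443 (0.334 to 0.581). Ihh (74945315 to 74951672), the Indian hedgehog ligand made by gastric surface mucous cells, was at 899.7, 1331 and 1556 CPM, a ratio of 0.578 (0.449 to 0.740). These 3 ratios were below 1 in each of the 5 depth bins, but not every bin's interval was. The interval held 1 for Fn1 in the bins from 100, 200 and 600 UMIs, and for Ihh and Fam117b in those from 200 and 600. After thinning to 100 UMIs Ihh was at 0.769 (0.562 to 1.047), an interval that held 1, and Fn1 at 0.657 (0.476 to 0.900). Ptpn18, a protein tyrosine phosphatase listed among tuft cell markers, was at 1763 CPM in the Rdh10-high group, 1619 between and 3417 in the Rdh10-low group, a ratio of 0.516 (0.433 to 0.613). For Ptpn18 the difference in level thus lay between the Rdh10-low group and the rest, and the ratio was 0.97 and 1.349 in the 2 deepest bins. Its detection differed little, at 35.8%, 37.89% and 39.16% of barcodes in the Rdh10-high, between and Rdh10-low groups. Without its 3 top barcodes the ratio was 0.607 (0.507 to 0.725).

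The remaining genes at that end were Bcs1l, an assembly factor of respiratory complex III (ratio 0.585), Spats2l (0.601), Lman2l, a lectin of the secretory pathway (0.664), Sgpp2, a sphingosine-1-phosphate phosphatase (0.672), Farsb, a subunit of phenylalanyl-tRNA synthetase (0.682), and the replication helicase gene Mcm3 (0.699). Sgpp2 (78310345 to 78420289, plus strand) and Farsb (78417975 to 78488897, minus strand) overlap at their ends, and how the authors' counting treated strand is not given in the sources used here. Spats2l was higher with Rdh10 in the shallowest bin (1.335) and Mcm3 in the deepest (1.529). Counting intervals of all the genes listed here lay below 1, ending nearest to it for Lman2l (0.461 to 0.949) and Mcm3 (0.516 to 0.941). With the highest 10% of barcodes in each bin set against all 383 barcodes without Rdh10, Sgpp2 was at 0.446 and Mcm3 at 0.454. After thinning to 100 UMIs, the interval held 1 for Bcs1l (0.675, 0.418 to 1.073) and Lman2l (0.893, 0.578 to 1.371). It also held 1 for Farsb (0.907, 0.728 to 1.128) and Mcm3 (0.869, 0.570 to 1.317). Without its 3 top barcodes Lman2l was at 0.718 (0.495 to 1.033), and for the other genes listed here the interval stayed below 1.

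**Figure D3:**
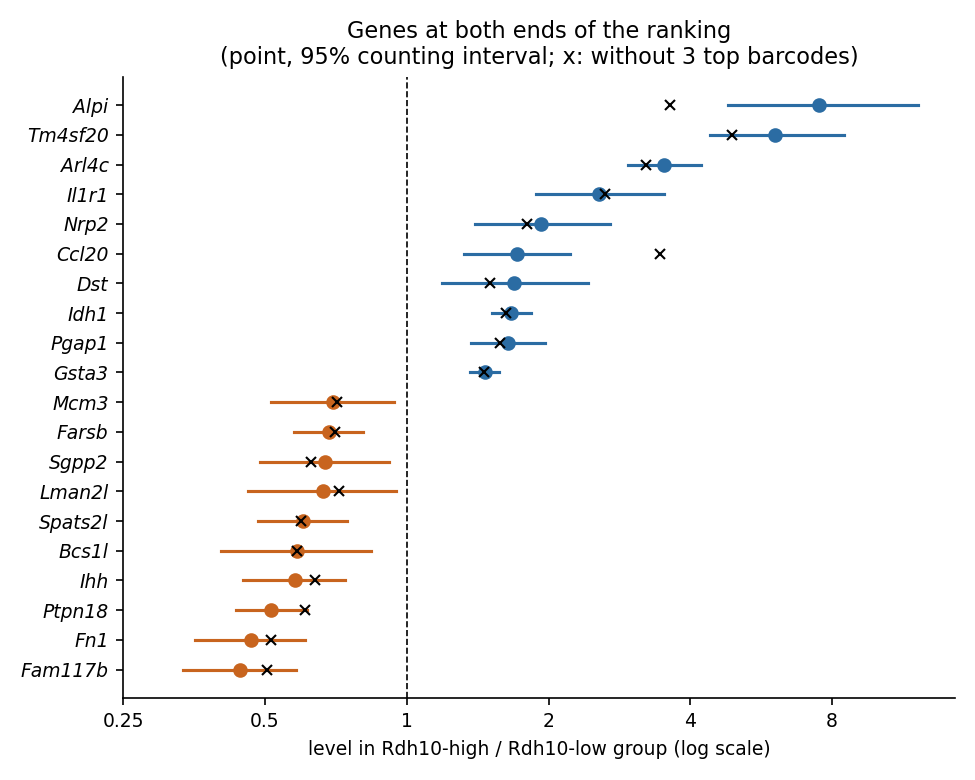
Ratio of each gene's level in the Rdh10-high over the Rdh10-low group (horizontal, log scale) for the 10 highest and 10 lowest ratios of 167 genes; points and lines give the ratio and its 95% counting interval, and crosses the ratio without 3 top barcodes. Tm4sf20 and Arl4c keep ratios of 4.897 and 3.217 without those barcodes, while Alpi drops from 7.489 to 3.63 and Ccl20 moves up to 3.449.

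A second measure, the correlation of Pearson residuals over the 1388 barcodes, rests on the same UMIs and named some of the same genes: 4 of its 5 highest are among the 10 highest ratios, and 2 of its 5 lowest among the 10 lowest. The most like Rdh10 were Arl4c (0.22), Idh1 (0.21), Il1r1 (0.17), Tm4sf20 (0.16) and Ptp4a1 (0.16), a phosphatase of the PRL type. The least like were Cox5b (-0.20) and Ndufb3 (-0.13), subunits of respiratory complexes, Ptma (-0.18), which encodes prothymosin alpha, Ihh (-0.11) and Spats2l (-0.10). These values are weak, and the barcodes share libraries and totals, so they rank genes and show no more. Over all 167 genes the median was 0.0015, with 14 above 0.1 and 6 below -0.1. Ptp4a1 was at 5789 against 4066 CPM in the Rdh10-high and Rdh10-low groups (ratio 1.424, 1.265 to 1.603). Cox5b was at 41433 against 50254 CPM (ratio 0.825, 0.793 to 0.857) and Ptma at 82802 against 102546 CPM (0.808, 0.786 to 0.830). Ptma took a large part of the table's UMIs, so its level bears on the levels of all other genes, and its part in the ratios above was not tested.

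The retinoid pathway itself could hardly be followed. Of 53 listed genes, 4 besides Rdh10 had a row, the aldehyde oxidases Aox1 with 11 UMIs, Aox3 with 31, Aox4 with 1 and Aox2 with 0. Aldehyde oxidases can convert retinaldehyde to retinoic acid. Together they had 118.1 CPM in the Rdh10-high and 96.2 CPM in the Rdh10-low group, a ratio of 1.228 whose interval of 0.516 to 2.943 shows no direction. No count of pathway genes past the fold could be given, because none of the 4 had enough UMIs to be ranked.

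Among 16 measured redox and lipid enzymes, 9 were ranked and 1, Idh1, was past 1.5-fold higher, while 0 were lower. Over all ranked genes these shares were 5.39% and 4.19%, so a count of 1 in 9 does not set the list apart. The median ratio of the 9 was 1.07, against 1.003 for all ranked genes. Pecr, a peroxisomal enoyl-CoA reductase, had a ratio of 1.264 (0.950 to 1.686), Acsl3, an acyl-CoA synthetase, one of 0.965 (0.780 to 1.193) and Ndufs1, a subunit of complex I, one of 0.857 (0.702 to 1.044). Ndufb3 was at 0.819 (0.754 to 0.890), Cyp20a1 at 1.07 (0.808 to 1.416), Hibch at 0.782 (0.567 to 1.073) and Mettl21a at 1.27 (0.878 to 1.842). Cyp27a1, a sterol hydroxylase, had 108 UMIs in all and was too rare to rank (1.478, 0.830 to 2.664). The 4 ranked genes of the ribosomal and translation list moved little: Rpl7 at 1.13, Eef1b2 at 1.096, Rpl31 at 0.995 and Rpl37a at 0.993.

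Markers of gastric cells did not point one way. Slc9a4, a sodium-proton exchanger of parietal cells and the only measured marker of that list, was at 2699 CPM in the Rdh10-high and 1893 in the Rdh10-low group, a ratio of 1.426 (1.198 to 1.699). Of the 2 surface mucous markers, Ihh was lower with Rdh10 and Slc9a2, another exchanger, was higher, at 427 against 168 CPM (2.536, 1.486 to 4.466, from 47 and 21 UMIs). Vil1, a brush border protein of many digestive epithelia, was level at 3971 and 4082 CPM (0.973, 0.854 to 1.108). The 5 measured cycling genes summed to 1572 CPM in the Rdh10-high and 2334 in the Rdh10-low group, a ratio of 0.674 (0.555 to 0.816). Mcm3 and Hjurp were ranked, and 0 of these 2 were past 1.5-fold. Among the members Sgol2, a protector of centromere cohesion, had 4 against 19 UMIs, Bard1, the BRCA1 partner, 6 against 19, Prim2, a primase subunit, 21 against 40 and Hjurp, a centromeric histone chaperone, 68 against 93. The intervals of Prim2 (0.333 to 1.033) and Hjurp (0.597 to 1.145) held 1, and in the deepest bin Mcm3 (1.529) and Prim2 (2.969) were on the other side.

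The endocrine list split by gene. Ptprn, a protein of secretory granule membranes, had 85 UMIs in the Rdh10-high and 10 in the Rdh10-low group, 772.5 against 80.2 CPM, a ratio of 9.632 (4.99 to 20.81) and of 6.551 without 3 barcodes. With 95 UMIs in both groups it fell just short of the minimum for ranking. Over the 3 depth bins that gave a value its ratio was 0.356, 6.862 and 9.966 from shallow to deep. The first of these rested on 1 against 5 UMIs (0.0075 to 3.182). The bins from 400 and from 600 UMIs gave no ratio, with 26 against 0 and 17 against 0 UMIs. Resp18, a neuroendocrine granule protein, went the other way with 5 against 68 UMIs, but 82.19% of them lay in 3 barcodes, and without these the ratio was 0.706. Scg2, a granin, had 0 UMIs in the Rdh10-high group and 13 in 2 barcodes of the Rdh10-low group. The list's sum, 827 against 826.1 CPM, hides these opposite values.

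UMIs of some genes listed for immune and tuft cells lay mostly in barcodes poor in Rdh10. Inpp5d, a phosphatase of blood and tuft cells, had 3 UMIs in the Rdh10-high and 40 in the Rdh10-low group (27.3 against 320.8 CPM, a ratio of 0.085, 0.017 to 0.267). The myeloid list of 3 measured genes was at 27.3 against 272.7 CPM, most of it from the decoy interleukin-1 receptor Il1r2 with 1 against 25 UMIs. T cell genes Ctla4, Icos and Cd28 had 0 UMIs in the Rdh10-high group and 11, 4 and 3 in the Rdh10-low group, where they lay in 4, 1 and 3 barcodes. In the bin from 100 UMIs the Rdh10-low group had 157 barcodes against 84. That bin held all Icos and Cd28 UMIs of the Rdh10-low group, and 4 of its 11 Ctla4 UMIs. It also held 18 of the group's 40 Inpp5d and 11 of its 25 Il1r2 UMIs. Cells had been sorted for high EPCAM, and whether immune cells were among the barcodes with these genes was not tested. Most UMIs of the T and NK list came from Il18r1 (1.436, 1.098 to 1.883), Il18rap (1.457, 0.793 to 2.711) and Ikzf2 (1.034, 0.696 to 1.532), so the list's sum was 1.173 (0.961 to 1.431). The tuft list (Ptpn18, Inpp5d and Sgk3, the last with 9 against 28 UMIs) was at 1872 against 3962 CPM. Fibroblast and muscle genes were at 391 against 642 CPM, led by Igfbp5 with 28 against 62 UMIs, with Col4a3 at 0. Myl1 had 13 UMIs in the Rdh10-high group, 53 in all and 0 in the Rdh10-low group, and 84.62% of those in the 2 groups lay in 3 barcodes. The part of such barcodes in the differences above was not tested for each gene. Leaving out all barcodes with a UMI of Inpp5d, Sgol2, Ccl20 or Alpi left Ptpn18 at 0.768 (0.616 to 0.954) and Tm4sf20 at 3.95 (2.774 to 5.735).

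Turned around, the level of Rdh10 was read in barcodes with at least 1 UMI of each of 15 genes and set beside that of the other barcodes, weighted to like depth. These groups overlap, and they use the same UMIs as the comparison of groups, so they give sizes and no independent support. The interval of the ratio lay above 1 in 6 groups, below 1 in 6 and held 1 in 3. Rdh10 varied 3.527 times as much as Poisson counts, so all its counting intervals are too narrow for differences between barcodes. Of the intervals that missed 1, those of Vil1 (1.006 to 1.158) and Mcm3 (0.825 to 0.974) ended nearest to it. In the 183 barcodes with Tm4sf20, Rdh10 was at 12608 CPM against 7007 in the others of like depth, a ratio of 1.799 (1.667 to 1.941), and 90.71% of them had a Rdh10 UMI. In the 439 with Arl4c it was at 11013 against 7044 CPM (1.563, 1.463 to 1.67), and in the 252 with Il1r1 at 10830 against 7403 CPM (1.463, 1.36 to 1.572). Within counting error, the neighbouring groups Arl4c and Il1r1 overlapped in their Rdh10 levels, and Tm4sf20 stood above both. Ccl20 (1.262), Alpi (1.205) and Vil1 (1.079) followed.

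Below 1 the order ended with Sgol2 and Inpp5d. The 28 barcodes with Inpp5d had the lowest level, 2965 CPM against 8371 at like depth (0.354, 0.227 to 0.528). The 43 with Sgol2, which marks dividing cells, were at 3950 CPM against 8354 (0.473, 0.378 to 0.584), and these 2 intervals overlapped. Rdh10 was at 6092 CPM in the 283 barcodes with Fn1 (0.690) and at 6906 CPM in the 366 with Ihh (0.765). In the 275 with Fzd5, a Wnt receptor, it was at 7229 CPM (0.836), and in the 233 with Mcm3 at 7209 CPM (0.897). For Slc9a4 (1.056), Ptpn18 (0.938) and Gsta3 (0.925) the interval held 1. For Gsta3 the measures differed in direction: the median Rdh10 share was 0.620% with Gsta3 and 0.447% in the other barcodes, and the ratio was 1.032 at 2 or more Gsta3 UMIs and 1.081 (0.961 to 1.217) after thinning.

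**Figure D4:**
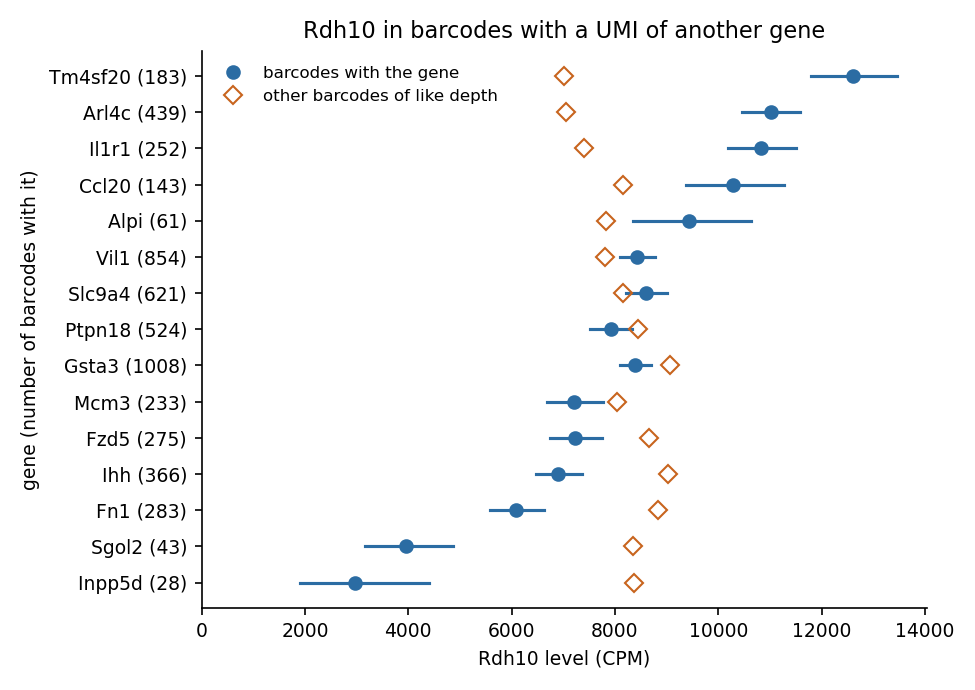
Rdh10 level in CPM (horizontal) in barcodes with at least 1 UMI of each of 15 genes (blue points, with 95% counting intervals; number of barcodes in brackets) and in the other barcodes weighted to like depth (open orange diamonds). Blue lies to the right of orange for Tm4sf20, Arl4c and Il1r1 and to the left for Ihh, Fn1, Sgol2 and Inpp5d.

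With more UMIs of Arl4c in a barcode, Rdh10 was higher. It was at 7078 CPM in the 949 barcodes without Arl4c and at 8853 in the 226 with 1 UMI. It reached 12188 CPM in the 132 with 2 to 3 Arl4c UMIs and 14154 (12849 to 15556) in the 81 with 4 or more. The first 3 steps did not overlap within counting error, and the last pair did. By UMIs of Tm4sf20, Rdh10 was at 7505 CPM without it, 11775 with 1 UMI, 13720 with 2 to 3 and 13186 with 4 or more. The last 3 intervals overlapped from one to the next, so a graded rise there could not be told from a plateau. For Il1r1 the levels were 7620, 9656 and 13424 CPM at 0, 1 and 2 to 3 UMIs. For Idh1 they were 6413, 7179, 8051 and 10213 CPM at 0, 1, 2 to 3 and 4 or more, while median totals went from 191 to 394.5 UMIs, so that depth moved with this order.

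The summed level of Rdh10 was lower with more Ihh, going from 8941 CPM at 0 UMIs to 7916 at 1, 5123 at 2 to 3 and 4653 (3259 to 6442) at 4 or more. The median Rdh10 share of a barcode did not fall steadily, at 0.595%, 0.639%, 0.308% and 0.397% over these steps. Median totals went from 272 to 389.5 UMIs, so that depth moved with this order. With Fn1 the summed Rdh10 level was at 8892, 6634 and 4920 CPM at 0, 1 and 2 to 3 UMIs, and at 6911 (5095 to 9162) in the 24 barcodes with 4 or more. With Gsta3 at 0, 1, 2 to 3 and 4 or more UMIs, the summed Rdh10 level was 8075, 7884, 8172 and 8650 CPM, without a steady order, while the median Rdh10 share of a barcode was 0.447%, 0.546%, 0.595% and 0.654%. Median totals went from 212 to 359 UMIs over the same steps. In the 35 barcodes with 4 or more Ptpn18 UMIs the median Rdh10 share was 0, although their summed level was 7788 CPM (6246 to 9595), so a few barcodes carried most of it.

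**Figure D5:**
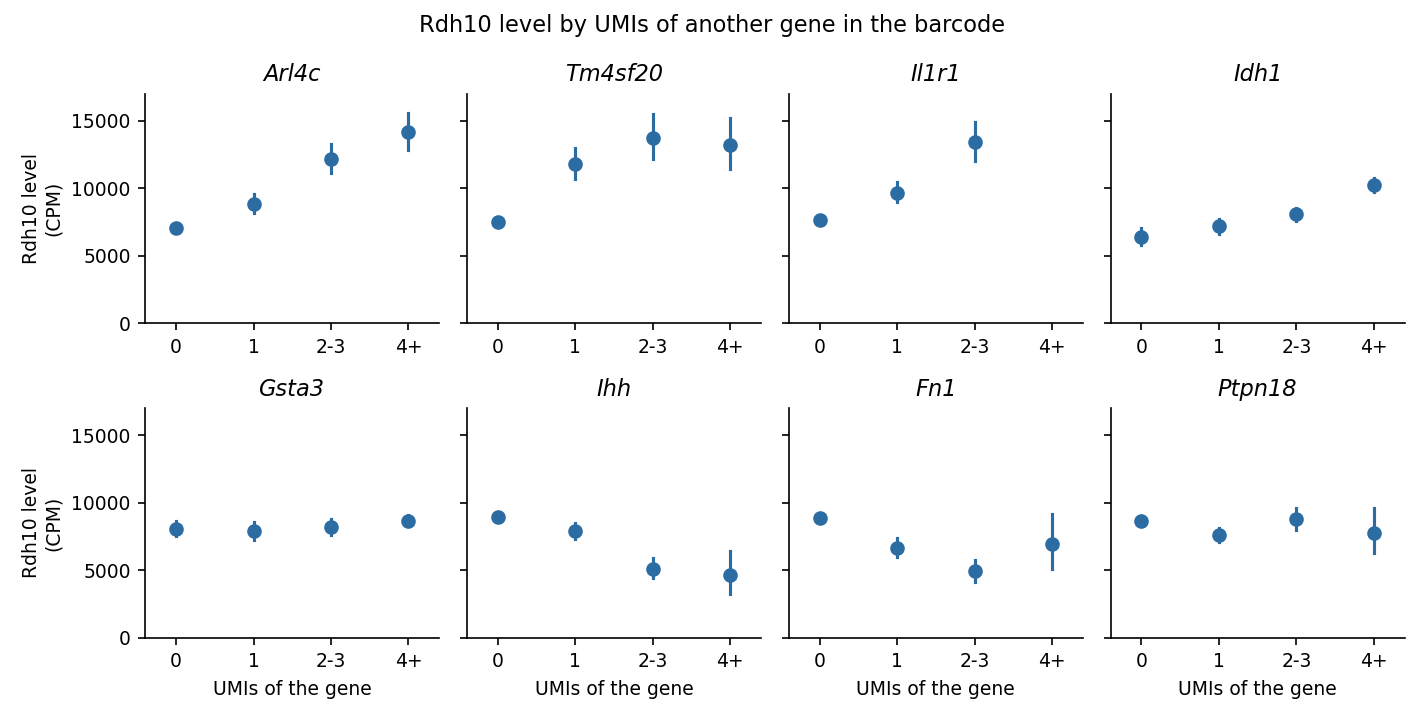
Rdh10 level in CPM (vertical) in barcodes grouped by their UMIs of 8 other genes (horizontal; 0, 1, 2 to 3, and 4 or more), with 95% counting intervals; the group of Il1r1 with 4 or more was too small to show. The level climbs with Arl4c from 7078 to 14154 CPM, falls with Ihh from 8941 to 4653, and lies between 7884 and 8650 CPM for Gsta3.

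Arl4c and Tm4sf20 marked Rdh10-rich barcodes together and apart. The 90 barcodes with both had Rdh10 at 13659 CPM (12487 to 14912). With Tm4sf20 alone (93 barcodes) it was at 11484 CPM (10375 to 12679) and with Arl4c alone (349 barcodes) at 10073 (9468 to 10705), levels that overlapped. With neither (856 barcodes) it was at 6513 CPM (6210 to 6827). In the 24 barcodes with Arl4c, Tm4sf20 and Il1r1, Rdh10 was at 16472 CPM (14225 to 18974), and 1 of them was in the Rdh10-low group. The 727 barcodes with none of the 3 made up 32.67% of the Rdh10-high and 66.9% of the Rdh10-low group.

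Rdh10 was also uneven among barcodes without a UMI of these 3 genes. All 3 are sparsely detected, so cells that express them can be among these barcodes, and their share of the spread was not tested. In the 727 barcodes, a choice made after the values were seen, Rdh10 was at 5970 CPM and its variance was still 2.859 times the Poisson variance. New groups formed there in the same way put 1 of 124 ranked genes, Ccl20, at 1.5-fold or more higher (2.763, 1.869 to 4.15), and Alpi was at 1.711 (0.833 to 3.591). Arl4c, Tm4sf20 and Il1r1, past 1.5-fold over all barcodes, could not be counted there, since these barcodes hold none of their UMIs. Idh1 was at 1.49 (1.297 to 1.712), below its ratio over all barcodes and under the 1.5-fold line. Ptpn18 (0.335, 0.262 to 0.426), Fam117b (0.557) and Fn1 (0.642) were still lower. For Ihh (0.781, 0.572 to 1.06), Farsb (0.880, 0.707 to 1.093), Sgpp2 (0.971, 0.674 to 1.393), Cox5b (0.987, 0.939 to 1.038) and Ptp4a1 (1.171, 0.980 to 1.4) the interval now held 1. Bcs1l (1.119) and Spats2l (1.03) were no longer lower.

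Rdh10 has a close neighbour. Rpl7, a gene for a protein of the large ribosomal subunit, lies on the minus strand from 16101295 to 16104662 and starts 1112 bases from the start of Rdh10, head to head. Rpl7 was at 124371 CPM in the Rdh10-high group and 110077 in the Rdh10-low group, a ratio of 1.13 (1.103 to 1.157), above 1 in all 5 depth bins, from 1.055 to 1.183. Its residual correlation with Rdh10 was 0.11. The other ranked genes of the ribosomal and translation list, Rpl37a, Rpl31 and Eef1b2, were at 0.993 to 1.096. Further neighbours with 50 or more UMIs did not share one direction: Terf1, a telomere protein, was at 0.843 (0.589 to 1.199), Sbspon at 1.133 (0.544 to 2.361), Stau2, an RNA-binding protein, at 0.964 (0.697 to 1.329), Ube2w, a ubiquitin-conjugating enzyme, at 1.259 (0.991 to 1.601), Tceb1, which encodes elongin C, at 0.884 (0.802 to 0.975) and Tmem70, an assembly factor of ATP synthase, at 1.011 (0.840 to 1.216). Kcnb2, 4930444P10Rik and D030040B21Rik had 1, 5 and 1 UMIs. No annotated gene of GENCODE vM21 overlaps Rdh10.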

How the data were processed

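Single-cell RNA was measured on the droplet-based 10x platform, and cells with high EPCAM and low Sytox Blue were sorted, per the labels' protocols. The deposited table holds raw counts of each gene (rows) in each barcode (columns), read here as UMIs. Cell Ranger, Seurat 2.3.0 and mm10 stand in the submitters' processing notes. What each did, with which annotation and filters, is not given in the sources used here. No file maps barcodes to samples, so the 8 samples were treated as 1; value columns left unused numbered 0. Barcodes under 100 UMIs were left out. Doublets were not removed, and no caller was run. The row of Asb18, with 928 values, was left out. Of the 779 other symbols, 707 matched GENCODE vM21 (GRCm38) by name and 37 by an older name.

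Levels carry exact Poisson intervals, ratios exact conditional binomial intervals and shares Clopper-Pearson intervals, at 95%. Depth bins began at 100, 200, 300, 400 and 600 UMIs. Pearson residuals used an overdispersion parameter of 100 and a limit of 10. The scripts (Python 3.11.15, matplotlib 3.10.9, numpy 2.4.6 and scipy 1.17.1) were tested on simulated data. Named were list members with 50 or more UMIs, the 10 highest and 10 lowest ratios among genes with 100 or more UMIs in the 2 groups (leaving out genes with most UMIs in 3 barcodes), the 5 highest and 5 lowest correlations among genes with 200 or more UMIs, and the 5 nearest measured genes on each side. Genes outside these limits that are named were chosen after their values were seen. The gene, the lists and the groups were chosen with earlier results of these data known. There were 16 alternative settings, of which 2 were added after seeing the data.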

Additional observations from a re-analysis of the deposited data

Results flagged for a closer look

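The 72 barcodes with fewer than 100 UMIs entered none of the comparisons, yet Rdh10 was found in them. They held 5043 UMIs, of which 47 were Rdh10, in 25 barcodes. The level was 9320 CPM (6848 to 12393), above the 594.9 CPM that a count of 0 allows at that depth, and its interval includes the 8325 CPM of the barcodes kept.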

How the results depend on the processing

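Genes higher by 1.5-fold in the Rdh10-high group, 9 of 167, were 3 of 131 after thinning to 100 UMIs, which formed new groups. The low group was then every barcode left without a Rdh10 UMI. The number was 16 of 143 with the highest 10% of each bin set against all 383 barcodes without Rdh10. Without barcodes holding Arl4c, Tm4sf20 or Il1r1 it was 1 of 124. These 3 genes were among the 9, and that choice leaves them no UMIs, so part of this drop is set by the choice of barcodes. Fewer genes reach the minimum to be ranked when fewer UMIs are used. The number lower, 7, became 3 after thinning, and the number of gene-defined groups with lower Rdh10, 6, became 3. The level of Rdh10, 8325 CPM, was 16542 when Rpl7, Rpl31, Rpl37a and Ptma were left out of the totals, which that change of denominator sets, and 5970 without the barcodes of the 3 genes. The variance over Poisson, 3.527, was 1.61 after thinning and 2.859 without those barcodes. Both settings lower the Rdh10 UMIs per barcode, which by itself lowers this measure, so these values do not show a smaller unevenness. Of the 20 genes at both ends, 18 kept their direction in each alternative that gave a value. Spats2l reversed after thinning (1.043), and without the barcodes of the 3 genes Spats2l (1.03), Bcs1l (1.119) and, outside the 20, Fzd5 (1.045) did. After thinning, Rdh10 with Mcm3 (1.006) and with Vil1 (0.980) reversed. The causes were not tested. No paired analysis was possible because barcodes carry no sample number and there is 1 group, and for the same reason no sample could be left out. Depth limits the rest: 227 further genes with a UMI in either group had too few to be ranked.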
